A study of Mus musculus with 11 samples.

Results

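Genes of coagulation, fibrinolysis and the kinin system were followed in liver RNA of mice with diet-induced steatohepatitis. The set was 32 genes chosen by name, of 31280 in the deposited table, and each name matched 1 row. Serpin inhibitors were left out of the set. By textbook knowledge, and not from these data, 21 of the products are made by hepatocytes, the main cells of the liver, 5 by endothelial cells and 3 by macrophages, while 3 have mixed sources.

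All mice were wild-type C57BL/6 and were kept for 8 weeks on a diet lacking methionine and choline (MCD), which impairs the export of fat from the liver and leads to fatty, inflamed liver. In the MCD group, 5 mice were given water by gavage. In the limonin group, 6 mice on the same diet were given limonin, a bitter triterpenoid of citrus fruit, by gavage at 100 mg/kg for 4 weeks. The ages of the mice are not given in the sources used here. Both groups ate the deficient diet, and no healthy-diet reference was used here.

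Clotting factors circulate as inactive precursors made mostly in the liver. Tissue factor with factor VII, or the contact system of factor XII, kallikrein and kininogen, starts a cascade that ends with thrombin turning fibrinogen into fibrin, which factor XIII crosslinks. Plasmin, cut from plasminogen by the tissue-type or the urokinase-type activator, dissolves fibrin, and kallikrein also frees the peptide bradykinin from kininogen. In injured liver, hepatocytes make more fibrinogen as part of the acute phase response, and the plasminogen activators and the urokinase receptor are also found in inflammatory and bile duct cells.

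Expression was given in FPKM, fragments scaled to transcript length and sequencing depth, so levels of different genes can be compared per length. The low values implied 15530000 to 19640000 fragments per library. Hepatocyte markers were present throughout, with Alb, the albumin gene, at 17789 ± 2674 FPKM in MCD (SD, n = 5) and 25889 ± 4615 with limonin (SD, n = 6). Of 10489 genes tested with limma on log2(FPKM + 1), 25.9% were called at a Benjamini-Hochberg adjusted p under 0.05, 7.24% higher and 18.7% lower. Higher calls made up 27.9% of all calls, against 57.7%, 52.9% and 49.5% after median-ratio scaling, quantile normalization and scaling to equal summed FPKM. The median log2 fold change of all tested genes was -0.07, and it was 0.05 after median-ratio scaling.

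Most of the hepatocyte-made genes rose with limonin, and among the other members the genes of urokinase and its receptor fell. Of the 21 hepatocyte-made genes, 14 rose, 0 fell and 7 were not called. Of all tested genes, 7.24% rose. At an unadjusted p under 0.05, limma also had 0 of them lower, as did the authors' deposited table at a q under 0.05. These 21 genes were at 1 FPKM or more in all 11 libraries, so none entered the test through 1 group. Their median log2 fold change was 0.51, against -0.07 for all tested genes. In 11 of the 21, all of them among the 14 that rose, all 6 limonin libraries lay above all 5 MCD libraries, which held for 2.97% of all tested genes. Among genes with at least 5 FPKM in 5 libraries 9.89% rose, and the same 14 members were called there. The 14 became 9 without MCD 1, where 4.52% of all genes rose, and 9 without MCD 2, where 3.13% did.

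The 11 genes of endothelial, macrophage or mixed sources were low, from F13a1 at 0.0937 ± 0.0323 FPKM to Tfpi2 at 11.1 ± 1.78 FPKM in MCD (SD, n = 5). In bulk liver, fewer cells of a type and less RNA per cell cannot be told apart. Only 6 of the 11 reached the filter of 1 FPKM in at least 5 libraries. Of these, 3 were called lower, Plau, Plaur and Plat, where 18.7% of all tested genes fell. These 3 reached the filter largely through the MCD libraries, where they were high. With no filter the 11 could all be tested. Then 2 fell, Plau and Plaur, where 5.68% of all genes fell, and 0 rose, where 1.32% did, also 0 at an unadjusted p under 0.05 among the 6 that passed the filter. Their median log2 fold change was -0.09, against -0.01 for all genes and 0.51 for the hepatocyte-made genes in the same fit, in which 9 of the 21 hepatocyte-made genes rose. All genes of that fit include those that missed the filter. Of the genes that reached it, 18.7% fell and 7.24% rose in the main fit.

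**Figure D1:**
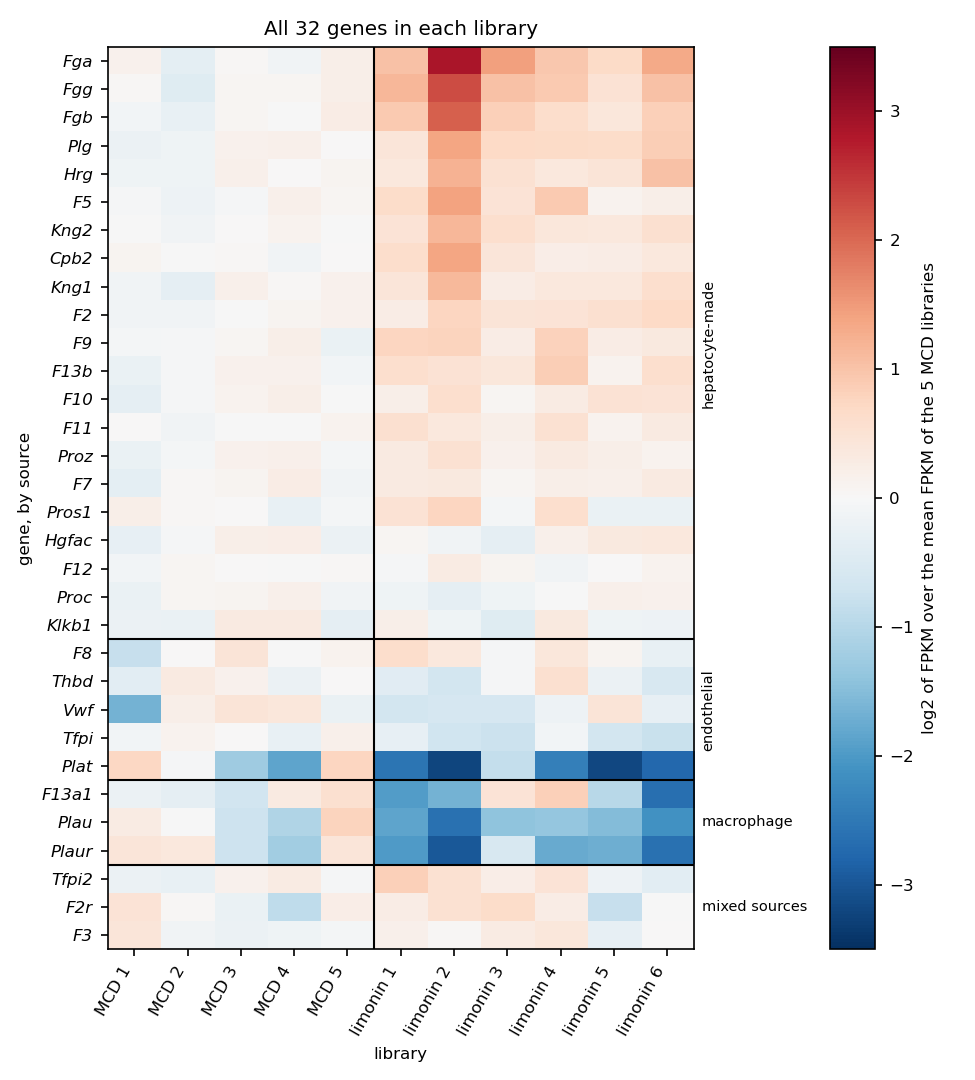
Level of each of the 32 genes (rows, by source) in each of the 11 libraries (columns), as log2 of FPKM over the mean of the 5 MCD libraries. Red is higher and blue is lower. The fibrinogen genes at the top are highest in limonin 2, and Plat, Plau and Plaur are blue in the limonin libraries and also in MCD 3 and MCD 4.

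**Figure D2:**
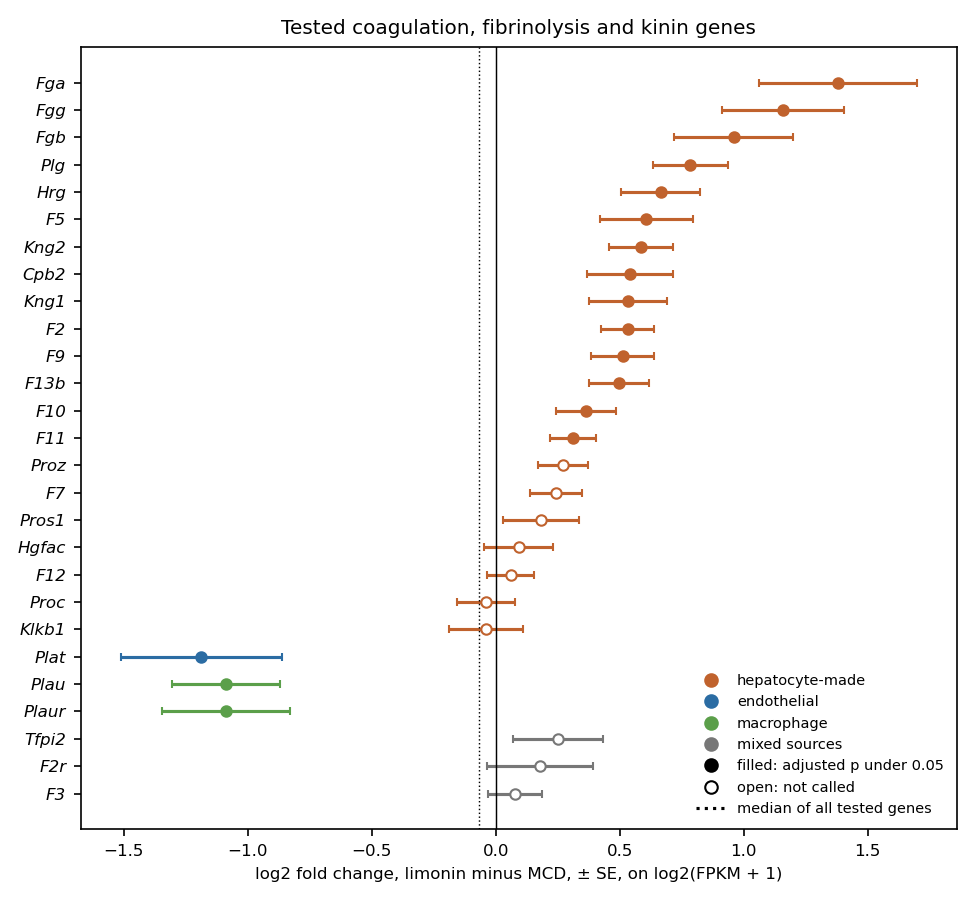
Log2 fold change, limonin minus MCD, with its SE for the 27 genes that were tested, coloured by source; filled points had an adjusted p under 0.05 (limma). The 3 fibrinogen genes lie farthest right, from 0.96 to 1.38, and Plat, Plaur and Plau lie between -1.09 and -1.19.

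The 3 fibrinogen chains showed the 3 largest rises of the set. Their genes lie side by side on chromosome 3 of GRCm38, Fgg at 83007724 to 83015049, Fga at 83026076 to 83033627 and, on the other strand, Fgb at 83040141 to 83049863. Fga, the alpha chain, was at 331, 235, 305, 271 and 344 FPKM in MCD 1 to 5, and ran from 474 to 2141 FPKM with a median of 669 in limonin. Fgb, the beta chain, was at 289, 256, 326, 302 and 366 FPKM in MCD and at 408 to 1323 FPKM, median 547, with limonin. Fgg, the gamma chain, was at 446, 326, 455, 454 and 502 FPKM in MCD and at 617 to 2108 FPKM, median 886, with limonin. For each chain the groups did not overlap, and the highest library was limonin 2.

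The log2 fold changes were 1.38 ± 0.32 (SE) for Fga, 0.96 ± 0.24 for Fgb and 1.16 ± 0.25 for Fgg, with adjusted p of 0.0103, 0.0134 and 0.00632 (limma). Limonin 2 stood 2.67 times above the next limonin library for Fga, 2.28 times for Fgb and 2.17 times for Fgg. Without it the limonin means were 637 ± 132 FPKM for Fga, 511 ± 70.2 for Fgb and 836 ± 133 for Fgg (SD, n = 5), and the 3 chains were called in each of the 11 fits that left out 1 library. The chains together took 0.173 to 0.261% of a library's summed FPKM in MCD and 0.324 to 1.38% with limonin.

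Of the 11 acute phase genes, 7 were highest in limonin 2 among the limonin libraries, while Lbp was highest in limonin 3, Apcs in limonin 4, Saa3 in limonin 5 and Orm2 in limonin 1. Saa1, a serum amyloid gene of the acute phase, was at 667 FPKM there and at 271 FPKM in limonin 1, and at 4.63 to 23.1 FPKM in the other 9 libraries. The 11 acute phase genes, which include Itih4 and Orm1, summed to 11909 FPKM in limonin 2 and 9782 FPKM in limonin 1, to 4404 to 5684 FPKM in the other 4 limonin libraries and to 3890 to 4897 FPKM in MCD. Of the 11, Lbp, Itih4, Crp and Apcs rose and 7 were not called, where 7.24% of all tested genes rose. With limonin 1 and limonin 2 both left out, a fit added after the data were seen, Fga, Fgb and Fgg stayed called at 1.10, 0.68 and 0.88 on the log2 scale. In that fit 11 of the 21 hepatocyte-made genes rose, where 4.15% of all genes did, and the 11 were among the 14 of the main fit.

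The stretches upstream of the fibrinogen genes are shown because the 3 neighbours moved together. Each runs from 250 bases before the RefSeq start site to 50 bases after it and is read in the direction of its gene (RefSeq, GRCm38.p6: Fga chr3:83025903-83026202, plus strand; Fgb chr3:83049814-83050113, minus strand; Fgg chr3:83007474-83007773, plus strand). Capitals mark every match, on either strand, to TTCNNNGAA (a STAT element), CTGGGAA (an interleukin-6 element of fibrinogen genes), TTGCNNAA (a C/EBP element), GTTAAT (a half-site of the hepatocyte factor HNF1) or CAAAGTC (the core of the HNF4 element).
Fga: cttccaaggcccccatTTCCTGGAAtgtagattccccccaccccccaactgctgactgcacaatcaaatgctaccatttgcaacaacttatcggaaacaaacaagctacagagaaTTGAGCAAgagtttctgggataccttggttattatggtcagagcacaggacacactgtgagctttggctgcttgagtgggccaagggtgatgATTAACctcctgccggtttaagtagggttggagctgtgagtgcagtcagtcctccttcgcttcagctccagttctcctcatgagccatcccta
Fgb: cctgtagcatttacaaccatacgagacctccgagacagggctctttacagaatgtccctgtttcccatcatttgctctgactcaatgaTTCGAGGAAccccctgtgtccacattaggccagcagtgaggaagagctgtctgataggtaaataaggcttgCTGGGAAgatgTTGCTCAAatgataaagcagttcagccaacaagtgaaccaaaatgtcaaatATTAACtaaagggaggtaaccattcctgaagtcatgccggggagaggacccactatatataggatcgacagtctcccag
Fgg: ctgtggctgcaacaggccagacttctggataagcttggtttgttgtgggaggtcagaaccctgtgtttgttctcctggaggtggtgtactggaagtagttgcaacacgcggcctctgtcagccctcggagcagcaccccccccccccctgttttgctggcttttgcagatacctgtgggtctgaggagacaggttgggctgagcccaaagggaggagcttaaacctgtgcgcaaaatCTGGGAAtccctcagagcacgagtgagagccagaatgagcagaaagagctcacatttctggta

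In the Fga stretch the matches were a STAT element, a C/EBP element and the HNF1 half-site, the last with its first base at position -43 (the start site is position 0). The RefSeq start site of Fga lies 77 bases inside the GENCODE gene. The Fgb stretch held a STAT element, CTGGGAA, a C/EBP element from position -80 and the HNF1 half-site, and the Fgg stretch held CTGGGAA from position -13. No 2 matches overlapped within a stretch. Of all 32851 promoters in the table, 8.3% held the STAT element, 11.1% CTGGGAA, 10.8% the C/EBP element, 7.1% the HNF1 half-site and 4.44% the HNF4 core. Of the 32 genes, 25 had a promoter there (missing were Kng1, Plat, Plau, Plg, Proc, Thbd and Vwf), and these elements were found in 5, 6, 9, 7 and 1 of them. Of the 12 promoters of hepatocyte-made genes that rose, 3 held the STAT element, 4 CTGGGAA, 7 the C/EBP element, 4 the HNF1 half-site and 0 the HNF4 core. These are matches of letters and not measured sites.

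Of the 7 factors whose activity depends on vitamin K, 3 rose and 4 were not called, where 7.24% of all tested genes rose. F2, which encodes prothrombin, the precursor of thrombin, was at 200, 201, 215, 230 and 239 FPKM in MCD and at 262 to 364 FPKM, median 310, with limonin, with no overlap. Its log2 fold change was 0.53 ± 0.11 (SE, adjusted p = 0.00446, limma). F9, the factor IX gene on chromosome X (59999464 to 60030759), was at 17.1, 17.4, 18.8, 20.5 and 15.2 FPKM in MCD and at 21.2 to 31.0 FPKM, median 26.3, with limonin. The groups did not overlap, although 3 limonin libraries stayed below 23 FPKM, and the log2 fold change was 0.51 ± 0.13 (adjusted p = 0.0117, limma). F10, the factor X gene, had overlapping groups and a log2 fold change of 0.36 ± 0.12 (adjusted p = 0.0399, limma). Its call was lost in 8 of the 11 fits that left out 1 library, those without MCD 1, 2, 3 or 5 or limonin 2, 4, 5 or 6, with an adjusted p of up to 0.105. F10 was named after its values were seen.

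The other vitamin K dependent genes changed less. F7, the partner of tissue factor, averaged 25.5 ± 3.99 FPKM in MCD and 30.2 ± 2.22 FPKM with limonin, and its log2 fold change was 0.24 ± 0.11 (adjusted p = 0.102, limma). Proz, a cofactor for the inhibition of factor X, had 0.27 ± 0.10 (adjusted p = 0.0636, limma). Both were called higher after median-ratio scaling and after scaling to equal summed FPKM. These scalings called 17.6% and 10.4% of all genes higher, against 7.24% in the main fit. The anticoagulant genes were not called, with Pros1, the cofactor protein S, at 0.18 ± 0.15 and Proc, the protein C gene, at -0.04 ± 0.12, which turned positive under 2 of the 3 scalings (0.11 after median-ratio scaling and 0.08 at equal summed FPKM).

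F5, the cofactor of factor X, was at 19.6, 17.7, 19.5, 23.0 and 20.98 FPKM in MCD and at 22.1 to 53.2 FPKM, median 29.6, with limonin. The groups overlapped, with limonin 5 below MCD 4. Its log2 fold change of 0.61 ± 0.19 (adjusted p = 0.0298, limma) lost its call without MCD 1, MCD 2, MCD 3 or limonin 4, with an adjusted p of up to 0.0811. Tissue factor, F3, the initiator on cell surfaces, was at 1.83 ± 0.355 FPKM in MCD and 1.99 ± 0.320 FPKM with limonin and was not called. F8, the factor VIII gene, and Vwf, its carrier, both made by endothelial cells, did not reach the filter. F8 was at 0.412 ± 0.116 FPKM (SD, n = 5) and 0.481 ± 0.108 FPKM (SD, n = 6), and Vwf at 0.774 ± 0.333 FPKM and 0.650 ± 0.213 FPKM, with overlapping groups. Of the subunits of factor XIII, which crosslinks fibrin, the hepatocyte-made carrier F13b was at 19.2, 22.0, 25.1, 24.9 and 21.2 FPKM in MCD and at 24.3 to 40.4 FPKM, median 32.8, with limonin. Limonin 5 lay below MCD 3 and MCD 4, and F13b rose by 0.50 ± 0.12 on the log2 scale (adjusted p = 0.0105, limma). The catalytic subunit F13a1, made by macrophages and platelets, had 0.168 FPKM in its highest library and was not tested.

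**Figure D3:**
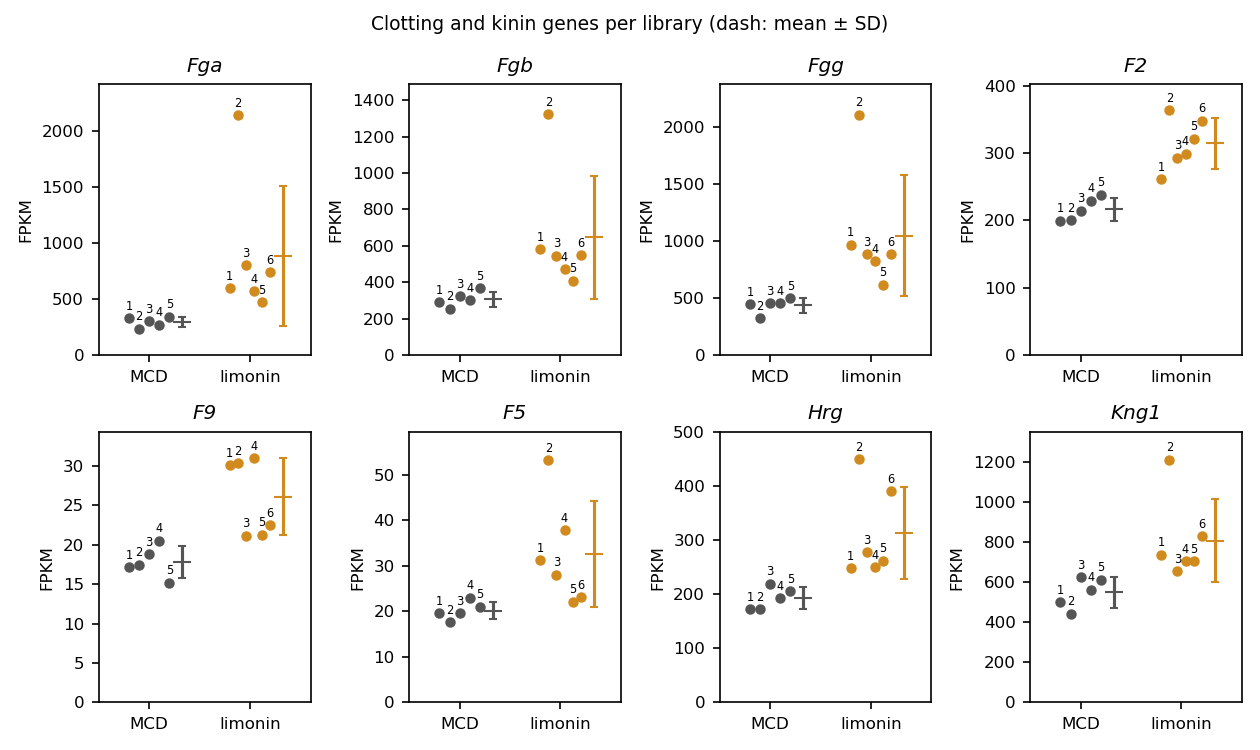
FPKM of 8 clotting and kinin genes per library, with each point numbered by its replicate and the dash and bar giving the mean ± SD of 5 MCD and 6 limonin libraries. Limonin 2 is the top point for Fga, Fgb, Fgg, F2, F5, Hrg and Kng1, and all limonin points lie above the MCD points except for F5.

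Of the 6 contact and kinin genes, 4 rose and 2 were not called, where 7.24% of all tested genes rose. Hrg, histidine-rich glycoprotein, which binds heparin and plasminogen, was at 173, 172, 219, 193 and 205 FPKM in MCD and at 248 to 450 FPKM, median 270, with limonin. Its groups did not overlap, and the log2 fold change was 0.66 ± 0.16 (adjusted p = 0.0102, limma). Kng1, a kininogen gene and the most abundant member in MCD per length, was at 501, 443, 626, 563 and 613 FPKM there and at 655 to 1212 FPKM, median 722, with limonin. Its paralog Kng2 was lower, at 66.7, 61.4, 67.8, 72.6 and 65.6 FPKM in MCD, and at 85.7 to 149 FPKM, median 95.2, with limonin. Neither gene had overlapping groups, and the lowest limonin library for Kng1 lay just above the highest MCD library.

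Kng2 rose by 0.58 ± 0.13 on the log2 scale (adjusted p = 0.00704, limma) and Kng1 by 0.53 ± 0.16 (adjusted p = 0.0250, limma). The call of Kng1 was lost without MCD 1 or without MCD 2, with an adjusted p of up to 0.0787. Of the windows of 100 bases in Kng1 transcripts, 4.93% also occur in Kng2 transcripts, and 5.29% the other way, so part of the reads could have been assigned to either gene. F11, the factor XI gene, was at 6.42, 5.86, 6.39, 6.36 and 7.01 FPKM in MCD and at 7.02 to 9.44 FPKM, median 8.10, with limonin, with groups that barely parted. Its log2 fold change was 0.31 ± 0.09 (adjusted p = 0.0271, limma) and lost its call without MCD 1, MCD 2, MCD 3 or limonin 4, with an adjusted p of up to 0.0786. The 2 that were not called start the contact system. F12, the factor XII gene, was at 205 ± 8.94 FPKM and 215 ± 21.7 FPKM, and Klkb1, plasma kallikrein, at 18.1 ± 3.91 FPKM and 17.6 ± 3.47 FPKM, with a log2 fold change of -0.04 ± 0.15 that was positive after each of the 3 scalings.

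Several members are neighbours in the genome, and 10 pairs lay within 100000 bases of each other. For each pair the log2 ratio of the genes, each taken as FPKM + 1, was compared between the groups. An exact two-sided permutation test was used, over the 462 ways to label 5 of the libraries MCD and 6 limonin, adjusted over the 10 pairs. The pairs with the smallest p were fibrinogen chains. The Fgg to Fgb log2 ratio went from 0.50 ± 0.11 in MCD (SD, n = 5) to 0.70 ± 0.07 with limonin (SD, n = 6), and the Fga to Fgb ratio from -0.05 ± 0.14 to 0.37 ± 0.24, with exact p of 0.00649 and 0.0108 and an adjusted p of 0.0541 for both. Klkb1 and F11 lie 4658 bases apart on chromosome 8, and their log2 ratio, F11 over Klkb1, went from -1.35 ± 0.31 to -0.996 ± 0.159 (exact p = 0.0346, adjusted p = 0.115). For Fgg and Fga, for the 3 pairs of F7, F10 and Proz, and for the 3 pairs of Hrg, Kng2 and Kng1, the adjusted p ran from 0.303 to 0.697, and no pair passed after adjustment.

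Of the 5 fibrinolysis genes, Plg and Cpb2 were called higher and Plau, Plaur and Plat lower. Of all tested genes 7.24% rose and 18.7% fell, and the calls of Cpb2 and Plat did not hold in all fits. Plg, which encodes plasminogen and lies on chromosome 17 (12378608 to 12419385), was at 142, 146, 180, 184 and 164 FPKM in MCD and at 217 to 427 FPKM, median 262, with limonin. It rose by 0.78 ± 0.15 on the log2 scale (adjusted p = 0.00372, limma), with no overlap of the groups and the smallest p of the set. Cpb2, a carboxypeptidase that slows fibrinolysis, was at 76.6, 71.1, 74.2, 66.6 and 72.2 FPKM in MCD and at 84.6 to 188 FPKM, median 95.2, with limonin. Its groups did not overlap, but its log2 fold change of 0.54 ± 0.17 (adjusted p = 0.0344, limma) lost its call without any 1 of the 5 MCD libraries or without limonin 1, with an adjusted p of up to 0.0778.

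Plau, which encodes urokinase (chromosome 14, 20836660 to 20843385), was at 4.43, 3.64, 2.24, 1.76 and 6.25 FPKM in MCD and at 0.599 to 1.44 FPKM, median 1.14, with limonin. Every limonin value was under every MCD value, which held for 8.33% of all tested genes, and Plau fell by 1.09 ± 0.22 on the log2 scale (adjusted p = 0.00487, limma). Plaur, the urokinase receptor gene, was at 4.55, 4.38, 2.05, 1.46 and 4.52 FPKM in MCD and at 0.435 to 2.29 FPKM, median 0.928, with limonin. MCD 3 and MCD 4 lay below limonin 3, so the groups overlapped, and the fall was 1.09 ± 0.26 (adjusted p = 0.0106, limma). Plat, the tissue-type activator, was at 5.11, 3.01, 1.32, 0.863 and 5.20 FPKM in MCD and at 0.333 to 1.74 FPKM, median 0.490, with limonin. Here too MCD 3 and MCD 4 lay below limonin 3.

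Plat had a log2 fold change of -1.19 ± 0.32 (adjusted p = 0.0216, limma). It passed the filter through 4 MCD libraries and 1 limonin library, and Plau and Plaur reached 1 FPKM in 5 MCD libraries each, so their level in MCD brought these genes into the test. With no filter, Plau and Plaur stayed called and Plat had an adjusted p of 0.0554. The call of Plat was also lost without MCD 1 or without MCD 2, with an adjusted p of up to 0.0594, without both limonin 5 and 6 (0.0641) and without both limonin 1 and 2 (0.0883).

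Markers of other cells were followed as well, where 18.7% of all tested genes fell and 7.24% rose. Of 12 macrophage markers, 5 of the 10 tested fell and 5, Clec4f, Vsig4 and Cd5l among them, were not called. The summed level of the 12 was 225 to 802 FPKM in MCD and 149 to 246 FPKM with limonin. Of 5 bile duct markers, the 3 tested fell, and the sum was 14.0 to 36.9 FPKM in MCD and 4.52 to 13.7 FPKM with limonin. The 11 endothelial markers held 3 that fell, 1 that rose (Kdr) and 7 that were not called. Their sums were 56.2 to 102 FPKM in MCD and 49.1 to 76.3 FPKM with limonin. Of 7 markers of stellate cells, the fat-storing cells that make matrix, 4 of the 6 tested fell, with sums of 51.5 to 84.7 FPKM and 38.0 to 59.0 FPKM. Of 8 platelet markers 1 was tested, Pf4, which fell by 1.26 on the log2 scale, and the sums were 5.47 to 11.3 FPKM and 2.67 to 4.03 FPKM. MCD 4, with the lowest Plau, Plaur and Plat of its group, had the lowest sum of its group for the macrophage, bile duct, stellate and platelet markers. Single markers did not all follow these sums. Within MCD, Csf1r, C1qa, C1qb, Cd68 and Ccr2 were lowest in MCD 4 and Lyz2 in MCD 3. The macrophage markers Adgre1, Marco, Cd5l, Clec4f, Vsig4 and Timd4 were lowest in MCD 1. Krt19, Des, Lrat and every platelet marker but Pf4 also had their lowest MCD value outside MCD 4. For the endothelial markers MCD 4 had 79.2 FPKM, and the lowest sum, 56.2 FPKM, was in MCD 1, with the highest Plaur of the group. MCD 5, with the highest Plau and Plat of the group, had a bile duct sum of 17.8 FPKM, the next lowest after MCD 4. No marker of these 5 lists was at 0 in every library, and their part in the falls of Plau, Plaur and Plat was not tested. Among 10 hepatocyte markers, Alb, Cps1 and Hnf4a rose and 7 were not called, where 7.24% of all tested genes rose. Of the 7, Apoa1 had -0.65 and Ttr -0.12 on the log2 scale. The sums were 29538 to 37024 FPKM in MCD and 31563 to 47765 FPKM with limonin. The part of the hepatocyte markers in the rises of the hepatocyte-made genes was not tested.

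**Figure D4:**
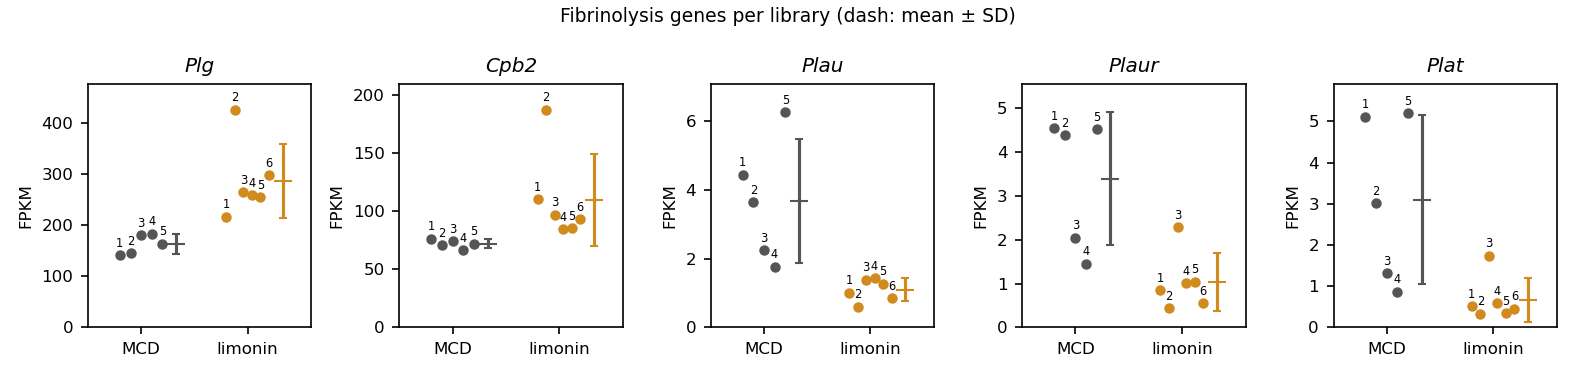
FPKM of the 5 fibrinolysis genes per library, with points numbered by replicate and the dash and bar giving the mean ± SD of 5 MCD and 6 limonin libraries. Plg and Cpb2 are higher with limonin without overlap, Plau is lower without overlap, and for Plaur and Plat limonin 3 lies above MCD 3 and MCD 4.

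The endothelial anticoagulant genes were low. Thbd, thrombomodulin, which turns thrombin towards protein C, was at 0.992 ± 0.188 FPKM in MCD and 0.890 ± 0.306 FPKM with limonin. Tfpi, the inhibitor of tissue factor, was at 0.668, 0.773, 0.727, 0.599 and 0.803 FPKM in MCD and at 0.419 to 0.664 FPKM, median 0.446, with limonin. Neither reached the filter, and both had overlapping groups. Tfpi2, a related inhibitor, was at 11.1 ± 1.78 FPKM and 13.8 ± 4.18 FPKM, and the thrombin receptor gene F2r at 4.16 ± 1.34 FPKM and 4.84 ± 1.46 FPKM. Their log2 fold changes of 0.25 ± 0.18 and 0.18 ± 0.21 were not called. Hgfac, a hepatocyte-made protease related to factor XII that activates hepatocyte growth factor, was at 38.8 ± 6.32 FPKM and 41.6 ± 7.43 FPKM and was not called.

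Of 40 other genes of these pathways, 27 were tested, 7 rose, 4 fell and 16 were not called, with a median log2 fold change of 0.08. Of all tested genes 7.24% rose and 18.7% fell, and the list's 4 lower calls of 27 lie near that share. Those with the smallest p among the genes that rose were Serpinf2, the plasmin inhibitor, at 0.57 ± 0.13 (adjusted p = 0.00849, limma) and Serpind1, the thrombin inhibitor heparin cofactor II, at 0.52 ± 0.13 (adjusted p = 0.0110, limma). Pzp, a protease inhibitor of the alpha-2-macroglobulin family, at 0.77 ± 0.22, lost its call without MCD 2 (adjusted p of up to 0.0651, limma). Apoh, a phospholipid-binding plasma protein, at 0.51 ± 0.15, lost its call without MCD 1, MCD 2 or limonin 6 (adjusted p of up to 0.0725, limma). Serpinc1, which encodes antithrombin, the main inhibitor of thrombin, was at 180 ± 20.4 FPKM and 188 ± 27.0 FPKM and was not called. Its values were known when it was picked for the text. The vitamin K cycle genes Ggcx, Vkorc1 and Vkorc1l1, also picked with their values known, were not called, at -0.07 ± 0.10, -0.01 ± 0.13 and 0.05 ± 0.09.

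The 4 lower genes are given for their roles. Gas6, a vitamin K dependent ligand of receptor kinases, had -0.96 ± 0.16 (adjusted p = 0.00214, limma), and its groups did not overlap. Spint2 and Spint1, membrane inhibitors of proteases such as the activator of hepatocyte growth factor, had -0.64 ± 0.12 and -1.17 ± 0.22 (adjusted p of 0.00334 and 0.00351, limma). Anxa2, a surface receptor that brings plasminogen and its tissue-type activator together, had -1.08 ± 0.30 (adjusted p = 0.0248, limma), and 5 of 11 fits without 1 library lost this call (without MCD 1, 2 or 5 or limonin 2 or 6, adjusted p of up to 0.0709). Genes of this list called higher numbered 2 without MCD 2 (3.13% of all genes) and 4 without MCD 1 (4.52%) or limonin 6 (6.66%).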

How the data were processed

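Liver RNA of 11 mice was sequenced. Per the labels' protocols, libraries were dUTP-marked and made from poly(A) RNA. The submitters' processing notes name cutadapt 1.9, HISAT2 2.0.4, StringTie 1.3.4d and GRCh38. That is a human build, whereas the identifiers in the table are mouse ones. Whether fragments were assigned by strand is unknown here. Levels are deposited as FPKM. Per the file headers, the authors also give each gene a ratio between the groups, that ratio as log2, a p-value and a q-value, from a test the headers do not name. FPKM do not hold the number of fragments, so no counting intervals are given. Implied depth takes the commonest small value of FPKM times length, over genes with 1 transcript, to be 1 fragment.

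The comparison used limma 3.58.1 (R 4.3.3, with trend and robust settings, two-sided) on log2(FPKM + 1). A gene needed 1 FPKM or more in 5 or more libraries, with Benjamini-Hochberg adjustment over all 10489 genes tested and a threshold of 0.05. For low genes this scale makes fold changes too small. The procedure was also run on simulated data with independent noise for each gene. These held no outlying library such as limonin 2, so that run cannot show how the procedure treats one. The design text counts mice, so each library was taken as 1 animal, and p-values measure the spread between these libraries. Values are mean ± SD of FPKM and log2 fold change, limonin minus MCD, ± SE. GENCODE M21 (GRCm38) holds 31191 of the 31280 identifiers and gave the coordinates, and promoters were taken from RefSeq (GRCm38.p6). The members, the lists and the tests were chosen with earlier results of these data known. For the 16 called members with the smallest p, MCD values are given per library and limonin values by range and median. Other members are given by summary, except Tfpi, shown likewise after its values were seen, and of the other pathway genes the 4 called with the smallest p in each direction. The alternatives tried were: unfiltered genes, a 5 FPKM minimum, a pseudocount of 0.1 or 0.01, 3 scalings, other limma options, the replicate number as a block, left-out libraries and the authors' calls. Leaving out limonin 1 and 2 together, and the alternatives for the 40 other pathway genes, were added after seeing the data.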

Additional observations from a re-analysis of the deposited data

Results flagged for a closer look

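Within each group, a library whose gap to its nearest neighbour took up an unusually large share of the group's range was looked for in the 32 genes, by Dixon's criterion at 95%. For independent groups of normal values chance marks about 1 in 20, but the groups here share their libraries. The criterion marked 10 of 64 groups of values. Limonin 2 was far above the other limonin libraries in 6 of them, at 2141 FPKM for Fga (next 800 FPKM), 1323 FPKM for Fgb (next 582 FPKM), 2108 FPKM for Fgg (next 969 FPKM), 1212 FPKM for Kng1 (next 830 FPKM), 149 FPKM for Kng2 (next 101 FPKM) and 188 FPKM for Cpb2 (next 111 FPKM). Limonin 3 was the high library for Plat, at 1.74 FPKM (next 0.591 FPKM), and for Plaur, at 2.29 FPKM (next 1.04 FPKM). Limonin 5 was high for Vwf, at 1.06 FPKM (next 0.679 FPKM), and MCD 1 for F3, at 2.46 FPKM (next 1.76 FPKM).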

How the results depend on the processing

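None of the 17 called members and 8 other pathway genes followed through the alternatives changed sign there, and 71 of their values fell short of the threshold; Proc and Klkb1, which were not called, changed sign under scaling. The main fit had 17 members called, 14 higher (7.24% of all genes), all hepatocyte-made, and 3 lower (18.7%). With no filter, where more genes share the adjustment, 11 were called and 9 were higher, as were 1.32% of all genes. With at least 5 FPKM asked for, the 3 lower members were not tested, so 0 were called lower. Without both limonin 5 and 6, 1 gene of mixed sources, Tfpi2, was called higher, as were 12.8% of all genes. With 1 library left out, members called numbered 11 to 18 and those higher, all hepatocyte-made, 9 to 15. The lowest counts were without MCD 1 and without MCD 2, where 4.52% and 3.13% of all genes were higher. The replicate numbers gave no pairing, since the correlation of the deviations of same-numbered libraries ran from -0.24 to 0.20 over 5 pairs and own numbers correlated best for 1 of the 5. With the replicate number as a block, 8 members were called, 7 higher (3.45% of all genes), all hepatocyte-made, and 1 lower (8.53%), Plau. Not called there were Fgg (adjusted p = 0.0525), Fgb (0.063), Fga (0.0698), Cpb2 (0.0505), Kng1 (0.0972), F11 (0.111), F10 (0.13), Plaur (0.0828) and Plat (0.133) by limma, and other pathway genes called higher numbered 2. Other pathway genes called higher, 7 in the main fit, numbered 2 with no filter (1.32% of all genes) and 11 after median-ratio scaling (17.6%). They numbered 3 without both MCD 4 and 5 (4.63%) and 12 by the authors' deposited q (8.57%). With 1 library left out they ran from 2 without MCD 2 (3.13%) to 9 without limonin 5 (10.5%). Those lower, 4 in the main fit (18.7% of all genes), numbered 7 with no filter (5.68%) and 9 by the authors' deposited q (7.44%). By the authors' deposited q, 15 members were higher and 3 lower, as were 8.57% and 7.44% of all genes. The cause of these differences was not tested. Members such as F13a1, below 1 FPKM in all libraries, rest on few fragments and were not tested in the main fit.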
